A study of Arabidopsis thaliana with 6 samples.

Results

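Jacalin-related lectins are plant proteins built around a carbohydrate-binding fold. In *Arabidopsis* and its relatives in the mustard family several of them carry many copies of this fold and bind myrosinase, the β-glucosidase that starts the breakdown of glucosinolates when tissue is damaged. Nitrile specifier proteins, some of which also carry a jacalin domain, turn this breakdown away from isothiocyanates and towards nitriles. Other jacalin lectins join PYK10, the β-glucosidase of the ER bodies, in large complexes that form when cells are broken.

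The genes described here are 36 loci of this family, named as a list drawn up with earlier results of these data known. They comprise 10 jacalin lectin and myrosinase-binding genes that lie in a run on chromosome 1, from AT1G52000 to AT1G52130, a second run on chromosome 3 that holds both lectin and nitrile specifier genes, and single genes elsewhere. Of the 36 loci, 22 could be tied to a probe set, on 20 of the 22746 probe sets tested. Of these 20 probe sets, 2 are each shared by neighboring loci, AT1G52030 with AT1G52040 and AT5G38540 with AT5G38550, and no level could be given for the single genes of these pairs. The platform annotation named 19 of the probe sets, and the shared AT1G52030/AT1G52040 probe set was named only through the study's lists of called genes, so that its being called is not independent of how it was found.

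The other 14 loci were not analysed here, since the tables used tie them to no probe set. Among them are all 5 nitrile specifier genes, *NSP1* to *NSP5* (AT3G16400, AT2G33070, AT3G16390, AT3G16410 and AT5G48180). This limit lies in the probe annotation at hand, which with the study's lists left 8569 of the tested probe sets without a gene name, and a fuller annotation could add loci. Nitrile specifier expression is therefore not described here, and the genes with a probe set are lectin and myrosinase-binding genes only. The rest are *PBP1* (AT3G16420), *JAL31* (AT3G16430), AT3G16440, *JR1* (AT3G16470), AT1G52110, AT1G52120, AT1G52130, AT5G35950 and AT5G49850.

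RNA came from whole *fbs1-1* and WT seedlings, 12 days old, that had spent 5 days at 24 °C and then 7 days at 10 °C, in 16 h light and 8 h dark throughout, and each of 3 biological replicates per genotype was hybridized to 1 Affymetrix ATH1 array. *fbs1-1* is a single insertion line with a transposon in the first intron of the F-box gene *FBS1*, and an F-box protein selects the targets of a ubiquitin ligase. The background of both lines is labelled No-0, but the WT arrays themselves carry the name Nd0, so an effect of the insertion and any other difference between the lines cannot be told apart. The level of *FBS1* was not analysed here, as no probe set was tied to it. All plants had been chilled, so that each comparison is of genotypes in the cold and not of cold with warm.

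Values are log2 intensities after robust multi-array averaging (RMA), and 1 unit is a doubling. The median of an array was 2.62 to 2.72. A share of 40.2% to 40.8% of probe sets per array was under 2, a level referred to here as the low end because no detection calls were at hand. Differences are *fbs1-1* minus WT, tested with limma over all 22746 probe sets with Benjamini-Hochberg adjustment and called at an adjusted p under 0.05. In material from whole seedlings, fewer cells that express a gene and less RNA per cell cannot be told apart. Markers of other tissues were sparse. Of 12 root markers 4 had a probe set, with a summed linear intensity of 39.3 to 48.0 in *fbs1-1* and 30.5 to 38.4 in WT. All 4 lay above 0, with differences of 0.13 to 0.69, and the sums did not overlap between genotypes. None of the 4 was called, with 1 higher at an unadjusted p under 0.05, against 7.99% over all probe sets, and rank products called 0. Of 10 shoot markers only *RCA* had one, at 2953 to 3190 in *fbs1-1* and 2846 to 2953 in WT, and of 6 guard and myrosin cell markers 2 had one, summing to 9.98 to 13.4 in *fbs1-1* and 10.6 to 13.7 in WT. No measured marker was at 0, and the part of tissue makeup in the differences below was not tested.

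Of the 20 probe sets, 2 were lower in *fbs1-1* and 0 were higher, while 18 did not pass. Over all probe sets limma called 1.57% lower and 1.68% higher, and over those of the platform annotation 1.41% lower and 1.43% higher, beside which 1 of 19 members was lower and 0 were higher. At an unadjusted p under 0.05, 2 members were lower and 2 higher, against 6.71% lower and 7.99% higher over all probe sets, a share close to that of the members. Of the 19 named by the annotation, 1 was lower and 2 higher at that p. Rank products, the test of the study's methods, called the same number, 2 lower and 0 higher, against 1.17% lower and 1.15% higher over all probe sets. Of the 19 named by the annotation they called 1 lower and 0 higher. The AT1G52030/AT1G52040 probe set was named through lists made with this test on the same arrays, so its call adds no separate support. The median difference of the members was 0.00, against 0.01 over all probe sets, with 9 members below 0 and 11 above. The genotypes did not overlap for 6 of the 20 members, 3 lower and 3 higher in *fbs1-1*, against 19.7% of all probe sets.

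**Figure D1:**
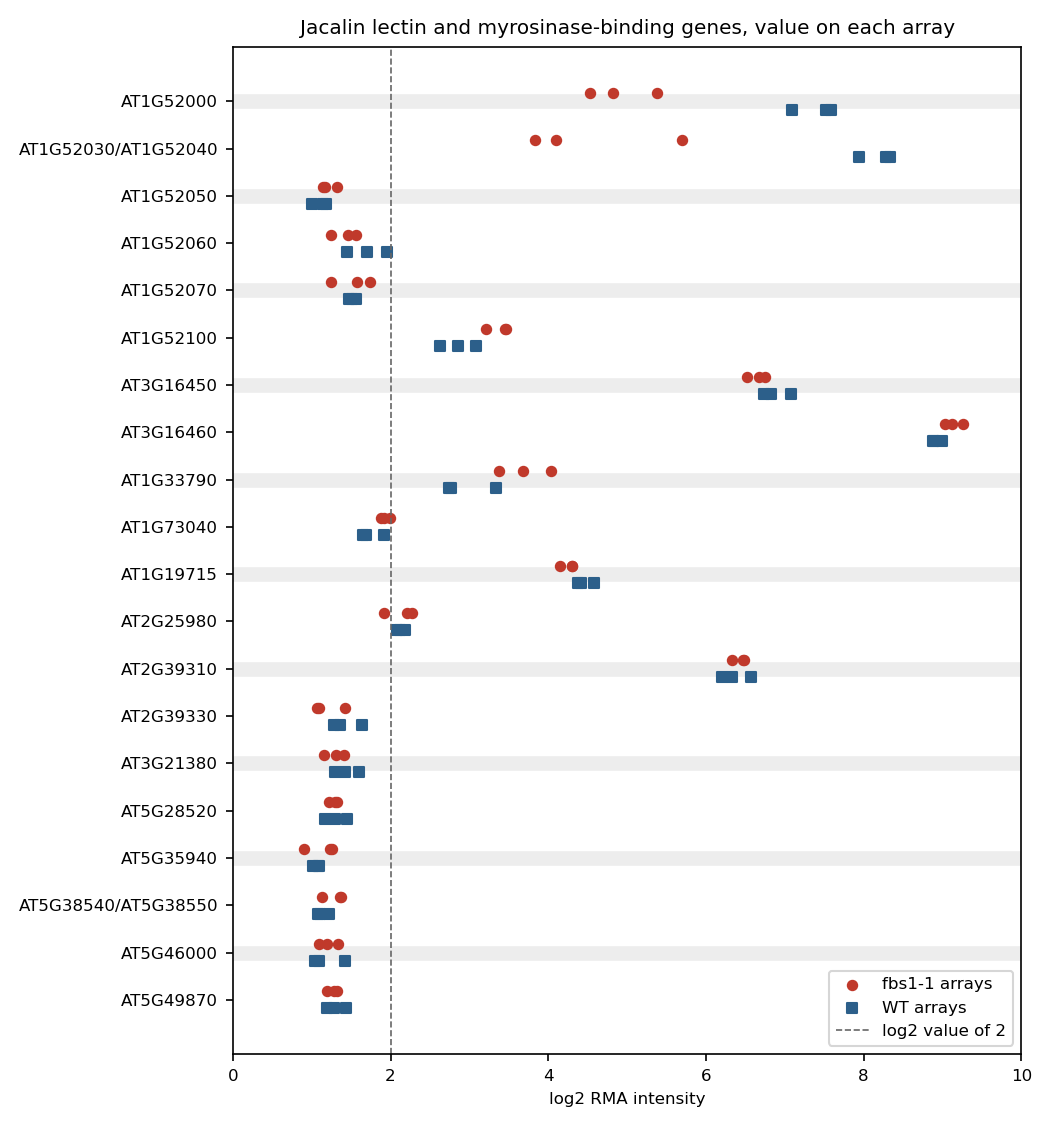
Log2 RMA intensity (x axis) of the 20 probe sets on each array, with the 3 *fbs1-1* arrays as circles above the 3 WT arrays as squares in each row and the log2 value of 2 as a dashed line. The *fbs1-1* points of AT1G52000 and AT1G52030/AT1G52040 lie at 3.83 to 5.70, and their WT points at 7.09 to 8.34.

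AT1G52000 encodes a jacalin lectin of the mannose-binding superfamily and opens the run on chromosome 1. Its log2 values were 4.53, 5.38 and 4.82 in *fbs1-1* and 7.09, 7.58 and 7.52 in WT. The lowest WT array was well above the highest *fbs1-1* array. Its mean was 4.91 ± 0.43 in *fbs1-1* and 7.40 ± 0.27 in WT (SD, n = 3 each), a difference of -2.49 (SE 0.22, 95% interval -2.99 to -1.99, adjusted p = 0.000791 with limma), which is 5.61-fold higher expression in WT. In all 3 *fbs1-1* samples the gene remained above the low end.

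The myrosinase-binding protein genes *MBP2* (AT1G52030) and *MBP1* (AT1G52040) follow AT1G52000 and share 1 probe set. In rapeseed, proteins of this kind are found in complexes with myrosinase. The shared probe set gave 3.83, 5.70 and 4.10 in *fbs1-1*, against 7.94, 8.34 and 8.28 in WT. The *fbs1-1* arrays were spread much more widely than the WT arrays, with replicate 2 above the other *fbs1-1* replicates, yet the genotypes did not overlap. The mean was 4.54 ± 1.01 in *fbs1-1* and 8.19 ± 0.21 in WT (SD, n = 3 each). The difference was -3.64 (SE 0.42, 95% interval -4.60 to -2.69, adjusted p = 0.00286 with limma), or 12.5-fold higher expression in WT. Whether one or both of *MBP1* and *MBP2* were lower cannot be told from a shared probe set.

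The next loci of the run did not follow. AT1G52050, AT1G52060 and AT1G52070, which encode further jacalin lectins, were under 2 on every array of both genotypes, with values of 1.14 to 1.74 in *fbs1-1* and 1.01 to 1.95 in WT. The largest of the 3 in size, -0.28 for AT1G52060, had a 95% interval of -0.61 to 0.06. AT1G52100, also a jacalin lectin gene, lay on the other side of 0. It gave 3.46, 3.21 and 3.46 in *fbs1-1* and 3.09, 2.86 and 2.63 in WT, with no overlap. The difference of 0.52 (95% interval 0.20 to 0.83) did not pass at an adjusted p of 0.0972 with limma. This value depended on how the arrays were modelled, as the adjusted p was 0.0393 with the array set as a block, 0.0274 with array weights and 0.0428 without WT replicate 1.

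**Figure D2:**
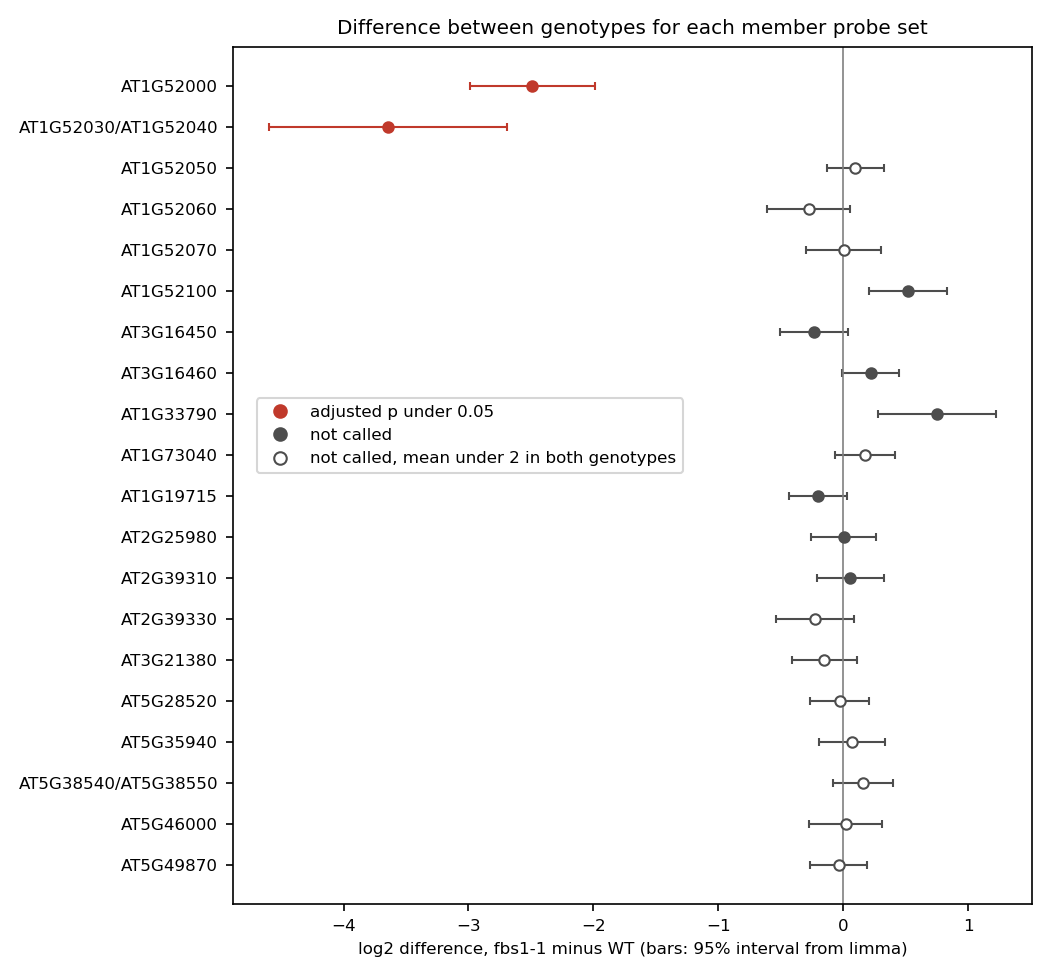
Log2 difference, *fbs1-1* minus WT, of each of the 20 probe sets (x axis), with bars for the 95% interval of the limma fit and open symbols where both genotype means are under 2. The intervals of AT1G52000 and AT1G52030/AT1G52040 end at -1.99 and -2.69, while those of the members not called lie between -0.61 and 1.22.

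Chromosome order sets these genes side by side. In the gene order of assembly TAIR10.1, AT1G52000, AT1G52030 and AT1G52040 are the first 3 protein-coding loci of the run, and the 4 measured members behind them were not called. The run also holds 1 gene that is no member, AT1G52080, with a difference of 0.05 (adjusted p = 0.895 with limma). Of the 20 loci that flank the run, 10 on either side, 11 were named by the platform annotation and limma called 0 of these, with 2 lower and 1 higher at an unadjusted p under 0.05 and 1 lower by rank products. Over all probe sets, 6.71% were lower and 7.99% higher at that p, and rank products called 1.17% lower. The flanking gene with the widest difference, AT1G52200, averaged 4.51 in *fbs1-1* and 5.67 in WT, and its difference of -1.17 (95% interval -1.88 to -0.45) had an adjusted p of 0.103 with limma.

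Further along the chromosome lie *BGLU18* (AT1G52400), a β-glucosidase of leaf ER bodies, and *TSA1* (AT1G52410), which encodes a protein related to the ER body protein NAI2. The genes are neighbors, and 37 protein-coding loci lie between AT1G52040 and *BGLU18*. Among the loci in between that are neither members nor within the flanks, 7 were named by the annotation and limma called 0, with 1 lower at an unadjusted p under 0.05 and 0 by rank products. At that p, 6.71% of all probe sets were lower. *BGLU18* gave 5.88, 7.25 and 5.58 in *fbs1-1* and 9.41, 9.91 and 9.86 in WT, a difference of -3.49 (95% interval -4.36 to -2.62, adjusted p = 0.00230 with limma). *TSA1* gave 3.48, 5.02 and 3.85 in *fbs1-1* and 6.15, 6.85 and 7.04 in WT, a difference of -2.56 (95% interval -3.43 to -1.70, adjusted p = 0.00978 with limma). Both probe sets were named only through the study's lists of called genes. In each of these 4 called probe sets of the stretch, AT1G52000, AT1G52030/AT1G52040, *BGLU18* and *TSA1*, replicate 2 was the highest *fbs1-1* array and replicate 1 the lowest WT array. This array order was read off these 4 probe sets after their values were seen, so that all 4 show it by construction. It occurred in 13.9% of all probe sets and in 18.4% of the 358 called lower in *fbs1-1*. Why the 4 share it was not tested.

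**Figure D3:**
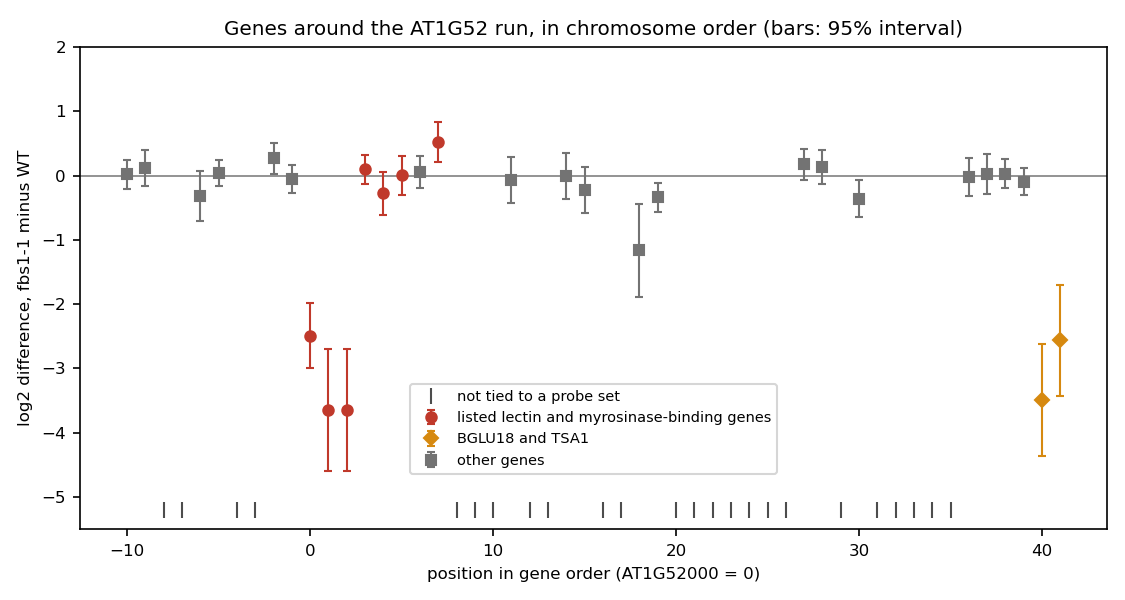
Log2 difference, *fbs1-1* minus WT (y axis, bars for the 95% interval), of genes in chromosome order with AT1G52000 at position 0 (x axis); *MBP2* and *MBP1* stand side by side with the value of their shared probe set, and ticks mark loci not tied to a probe set. The called probe sets are those of the run's first 3 loci and, 37 loci behind them, of *BGLU18* and *TSA1*, with uncalled genes between.

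The run on chromosome 3 holds the lectins of the PYK10 complex together with nitrile specifier genes, and 2 of its 9 loci were measured. *JAL33* (AT3G16450), a lectin found with PYK10, gave 6.75, 6.52 and 6.67 in *fbs1-1* and 6.83, 6.73 and 7.08 in WT. The groups overlapped narrowly, and the difference was -0.23 (95% interval -0.51 to 0.04, adjusted p = 0.436 with limma). *JAL34* (AT3G16460), a lectin of the same complex, gave 9.26, 9.12 and 9.03 in *fbs1-1*, against 9.0, 8.89 and 8.88 in WT. These did not overlap, and the difference of 0.22 (95% interval -0.01 to 0.45) did not pass either (adjusted p = 0.361 with limma). Both genes were well above the low end, and their intervals leave out any difference as wide as that of AT1G52000. The 20 loci flanking this run held 8 genes of the annotation, of which limma called 1 lower, against 1.41% over all probe sets of the annotation. It was *UGT88A1* (AT3G16520), a glycosyltransferase gene named after its values were seen (-0.63, 95% interval -0.94 to -0.32, adjusted p = 0.0439 with limma).

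Of the 12 remaining probe sets none was called, with 0 by rank products and 1 higher at an unadjusted p under 0.05, against 7.99% over all probe sets. That one, AT1G33790, a jacalin lectin gene of chromosome 1 outside the run, gave 4.04, 3.68 and 3.37 in *fbs1-1* and 3.34, 2.76 and 2.74 in WT. Every *fbs1-1* array was above every WT array, if narrowly. Its difference of 0.75 (95% interval 0.28 to 1.22) corresponds to 1.68-fold higher expression in *fbs1-1*, at an adjusted p of 0.110 with limma. The adjusted p was 0.00635 with the array set as a block, 0.0346 in arrays 59 to 62 alone, 0.0283 with array weights and 0.0375 without WT replicate 1. The percentage of false prediction from rank products, given as a fraction, was 0.0581 and did not pass either.

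*JAL22* (AT2G39310), another lectin of the PYK10 complex, gave 6.33, 6.48 and 6.47 in *fbs1-1* and 6.20, 6.33 and 6.57 in WT. Its difference was 0.06 (95% interval -0.21 to 0.32), and the groups overlapped. AT1G19715 gave 4.30, 4.30 and 4.15 in *fbs1-1* and 4.41, 4.37 and 4.58 in WT, a difference of -0.20 (95% interval -0.44 to 0.03, adjusted p = 0.412 with limma). These groups did not overlap, but the gap was small beside their spread. AT2G25980 lay at the border of the low end, with 2.21, 1.92 and 2.27 in *fbs1-1* and 2.19, 2.08 and 2.13 in WT, and a difference of 0.00.

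The low end held 11 of the 20 probe sets, with 12 loci. Besides the 3 of the chromosome 1 run these were AT1G73040, *JAL23* (AT2G39330), AT3G21380, AT5G28520, AT5G35940, AT5G38540/AT5G38550, AT5G46000 and AT5G49870. Their values ran from 0.91 to 1.99 in *fbs1-1* and from 1.01 to 1.95 in WT. Differences lay between -0.28 and 0.17, with adjusted p from 0.449 to 0.994 with limma, and both genotypes overlapped in all 11. No difference was detectable for these genes at this signal. Among the 9 probe sets above the low end in at least 1 genotype, 2 were called, and of the 8 named by the annotation 1 was called. Over all probe sets, those at the low end included, limma called 1.57% lower and 1.68% higher. The share over those above the low end alone was not counted.

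Glucosinolate breakdown and its partners were followed in lists of 78 further loci, which cover myrosinases, specifier modifiers, ER body genes, glucosinolate synthesis, regulators and transporters, nitrilases and other jacalin genes. Only 28 of these had a probe set, on 26, and none of the 5 loci listed as myrosinases did. Of 26 probe sets, 2 were lower in *fbs1-1* and 4 higher, against 1.57% and 1.68% over all probe sets, and 20 did not pass. All 6 called genes are among the 7 known here only through the study's lists of called genes, and of the 19 named by the annotation 0 were called, with 1 lower and 3 higher at an unadjusted p under 0.05 and 1 higher by rank products. The median difference of the 26 was 0.08, against 0.01 over all probe sets.

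The ER body genes with which several of these lectins act were split. Besides *BGLU18* and *TSA1*, lower in *fbs1-1*, 6 probe sets of the list, with 7 genes, did not pass. *PYK10* (AT3G09260), the β-glucosidase that binds the JAL lectins, gave 10.3, 9.88 and 10.2 in *fbs1-1* and 9.97, 9.98 and 10.1 in WT, a difference of 0.07 (95% interval -0.20 to 0.34). The shared probe set of its relatives *BGLU21* and *BGLU22* had a difference of 0.47 (95% interval -0.09 to 1.04, adjusted p = 0.444 with limma). *NAI1*, the transcription factor needed for ER bodies, and *NAI2*, chosen after their values were seen, differed by -0.09 (95% interval -0.34 to 0.15) and 0.07 (95% interval -0.17 to 0.31).

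**Figure D4:**
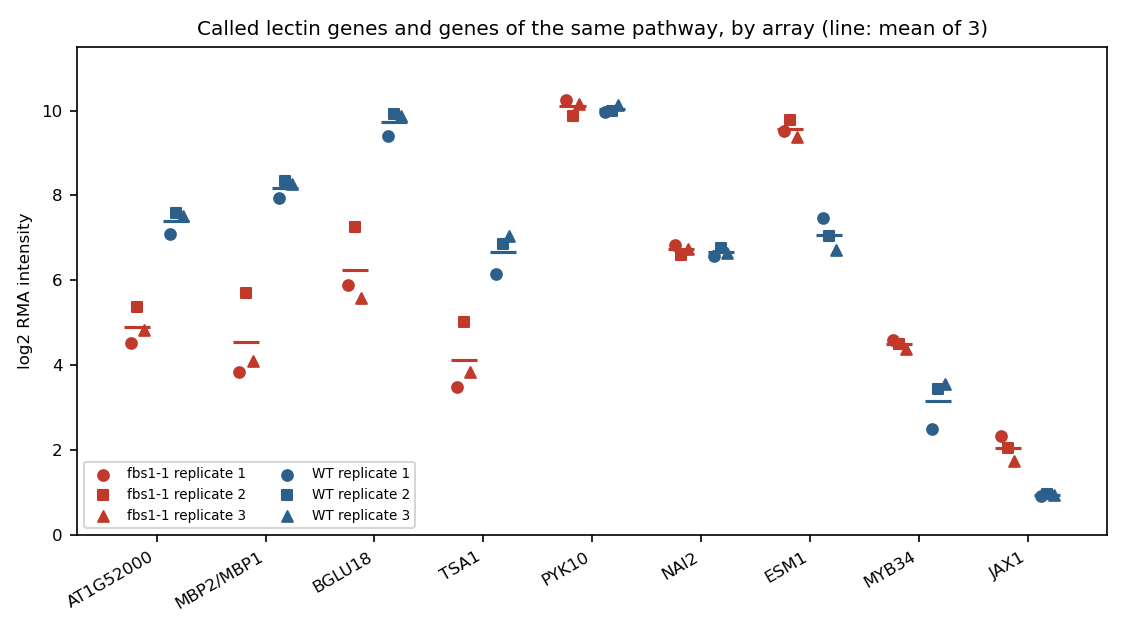
Log2 RMA intensity (y axis) on each array for the 2 called members and 7 genes of the lists, *fbs1-1* left of WT, with symbols for the replicate and a line at the mean of 3 arrays. Replicate 2 is the highest *fbs1-1* array for AT1G52000, *MBP2/MBP1*, *BGLU18* and *TSA1*, while *PYK10* and *NAI2* overlap between genotypes.

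Opposite in direction to the called lectin genes was *ESM1* (AT3G14210), which favors isothiocyanate over nitrile formation. It gave 9.53, 9.79 and 9.37 in *fbs1-1* and 7.48, 7.05 and 6.71 in WT, with a difference of 2.48 (95% interval 2.04 to 2.93, adjusted p = 0.000413 with limma), or 5.59-fold higher expression in *fbs1-1*. Apart from *BGLU18* and *TSA1*, which were lower, the other called genes of these lists were also higher. *MYB34* (AT5G60890), a regulator of indole glucosinolate synthesis, averaged 4.50 in *fbs1-1* and 3.16 in WT (1.33, adjusted p = 0.0246 with limma). *FMO GS-OX4* (AT1G62570), an enzyme of aliphatic side-chain oxidation, averaged 3.56 in *fbs1-1* and 2.78 in WT (0.78, adjusted p = 0.0333 with limma). Over the 9 measured genes of glucosinolate synthesis, regulation and transport, these 2 were higher and 7 did not pass. Limma called 1.68% higher over all probe sets. Both called genes are known here only through the study's lists, and of the 7 named by the annotation 0 were called. At an unadjusted p under 0.05 with limma, 5 of the 9 were higher and 0 lower, against 7.99% and 6.71% over all probe sets. Of the 7 named by the annotation, 3 were higher and 0 lower at that p. Rank products called 3 higher, against 1.15% over all probe sets, and 1 of the 7 named by the annotation. The study's lists were made with rank products on these same arrays, so the calls of *MYB34* and *FMO GS-OX4* are not independent of them. Genes that did not pass include the amino acid transaminase gene *BCAT4* (0.19, 95% interval -0.21 to 0.59) and AT2G31790 (0.29, 95% interval 0.04 to 0.53). The transporter genes *GTR1* (0.09, 95% interval -0.24 to 0.43) and *GTR2* (0.37, 95% interval 0.03 to 0.71) did not pass either.

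Outside the listed members, 1 of 6 probe sets of further jacalin genes was called higher, against 1.68% over all probe sets. The 6 stand for 7 loci, as AT2G43730 and AT2G43740 share 1. *JAX1* (AT1G58160), a lectin gene known for resistance to potexviruses, gave 2.34, 2.05 and 1.73 in *fbs1-1* and 0.93, 0.95 and 0.93 in WT. Its difference of 1.10 (95% interval 0.77 to 1.44, adjusted p = 0.00636 with limma) is of a gene at the low end in WT, and its probe set was named only through the study's lists. The other 5 probe sets had means under 2 in both genotypes, with differences from -0.29 to 0.19.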

How the data were processed

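Total RNA of chilled *fbs1-1* and WT seedlings was hybridized to 6 ATH1 arrays. The authors normalized the arrays with RMA in R, versions not given in the sources used here, and deposited log2 intensities per probe set. RMA equalizes the distribution of values between arrays, so that a shift of all genes would not show. Of 22810 probe sets, 64 controls were left out. Samples were grouped by their labels.

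Each locus was taken at its probe set in the platform annotation or, failing that, in the study's lists of called genes, which served as a probe map only. Every member may be named; from each further list, up to 4 called genes and up to 2 uncalled genes of highest mean. The members and lists were chosen with earlier results of these data known. Genotypes were compared with limma 3.58.1 in R 4.3.3 (genotype only, empirical Bayes) after tests on simulated data. Rank products (own code, Python 3.11.15, 9 array pairs, 100 permutations) and other scalings, filters, blocks, variance models and left-out arrays were alternatives. For arrays, the number of samples limits the precision, and p-values cover the spread between 3 replicates. Gene order is of TAIR10.1. Sequences and promoter motifs were not used here.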

Additional observations from a re-analysis of the deposited data

How the results depend on the processing

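The count of 2 members lower in *fbs1-1* was 2 in every alternative run except that without probe sets of several genes, which drops *MBP2/MBP1* by construction and left 1. AT1G52000 differed by -2.72 to -2.30 over all alternatives (adjusted p up to 0.00906 with limma) and *MBP2/MBP1* (AT1G52030/AT1G52040) by -4.22 to -3.29 (adjusted p up to 0.0218 with limma). The count of 0 members higher was less stable. It was 1 with the replicate block and in arrays 59 to 62 alone, in each case AT1G33790, and 2 with the array set (arrays 43 and 45 against 59 to 62) as a block and with array weights. Leaving out 1 array at a time gave 0 to 2, with 2 without WT replicate 1, which had the lowest array weight, 0.399. The cause was not tested. These are AT1G33790 and AT1G52100, and both lay above 0 in every alternative.

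Same-numbered arrays deviated together only weakly, with r of 0.282, 0.0881 and 0.144, and not every array correlated best with its own number. The numbers were therefore not taken to pair the samples. By array set, pairs of arrays within a set had r of 0.0881 to 0.282, and pairs across the sets had r of -0.233 to -0.160. The limma fit of the results above held genotype only and left the array set out. Under the replicate block AT1G33790 had an adjusted p of 0.00963 with limma, and over all probe sets the calls were 487 lower and 541 higher, against 358 and 382 without it. Over all probe sets, array weights gave 570 lower and 625 higher calls, the array set block 569 and 650, and an adjusted p under 0.01 gave 123 and 125. The counts of further pathway genes, 2 lower and 4 higher, were 3 lower with median-centred arrays, the replicate block, the array set block and rank products, and 5 higher with rank products. *NIT4* (AT5G22300) and AT1G04770 are the calls gained with rank products. No locus had several probe sets, so the choice among them gave no alternative. Signal limits the 11 members at the low end, and 3 arrays per genotype limit the rest.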

Other observations

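Within *fbs1-1* the SDs of the called members ranked high among all probe sets. This ranking takes in probe sets of every level, those at the low end included, and no comparison matched for level was made. The SD of the 3 *fbs1-1* arrays was 1.01 for *MBP2/MBP1* (AT1G52030/AT1G52040), at percentile 99.9 of all probe sets, and 0.43 for AT1G52000, at percentile 98.4, while their WT SDs of 0.21 and 0.27 were at percentiles 75.6 and 86.0. The highest array for both was *fbs1-1* replicate 2, where *BGLU18* and *TSA1* were also highest of their genotype. The cause was not tested.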
